A study of Mus musculus with 4 samples.

Results

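Kcnb2, Kcnq5, Kcnk2 and Kcnk3 are 4 potassium channel genes of the 32285 genes counted in single cells of the mouse ovary. They were picked by symbol because each had led a group of ovarian cells or differed with anti-Müllerian hormone (AMH) in these same libraries. Their levels and their AMH ratios are therefore descriptions and carry no test. The label under which they were grouped also names pacemaker channels, but none of the 4 genes encodes a hyperpolarization-activated (HCN) channel.

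Each of 4 groups of prepubertal mice gave 1 droplet library, made from 1 ovary of each of 5 animals pooled before capture. Dosing began at postnatal day 25, and tissue was taken 4 h after the last dose. The control group received PBS or saline. The doxorubicin group received 3 mg/kg of this DNA-damaging chemotherapy drug in 2 weekly doses. The doxorubicin+AMH group received both agents, the same drug with recombinant human AMH at 0.75 mg/kg, and the AMH group received 0.75 mg/kg of the hormone alone. No strain, promoter, deletion or transgene is given in the labels. With 1 library per group, the treatment and the library cannot be told apart, the spread between animals cannot be seen, and every interval below is a 95% interval of counting error only.

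Potassium channels let potassium leave the cell along its gradient and so set and restore the resting membrane potential. Voltage-gated (Kv) channels open when the membrane depolarizes, whereas two-pore (K2P) channels pass a background leak that lipids, stretch or pH can adjust. In the ovary, potassium currents have been recorded in granulosa cells, the somatic cells that surround and nourish the oocyte, and in steroid-producing theca cells. AMH is made by granulosa cells of growing follicles, acts through a BMP-type receptor and SMAD proteins, and restrains the recruitment of follicles.

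The feature that makes these 4 genes one family is the selectivity filter of the pore, so the coding bases of that stretch are shown for Kcnb2, Kcnk2 and Kcnk3. Each line gives 60 bases of coding sequence, 5′ to 3′ on the coding strand, read from GENCODE M21 transcripts on GRCm38. Capitals mark the in-frame match of 15 bases to the codon pattern of the filter signature: a threonine codon, a codon with T in the middle, a glycine codon, a codon that starts with T and a glycine codon.
Kcnb2: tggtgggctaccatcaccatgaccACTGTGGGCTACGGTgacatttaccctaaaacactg
Kcnk2, first match: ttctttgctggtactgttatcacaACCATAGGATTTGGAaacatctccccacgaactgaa
Kcnk2, second match: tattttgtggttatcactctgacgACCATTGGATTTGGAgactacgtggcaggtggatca
Kcnk3, first match: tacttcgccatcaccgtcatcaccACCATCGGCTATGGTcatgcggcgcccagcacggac
Kcnk3, second match: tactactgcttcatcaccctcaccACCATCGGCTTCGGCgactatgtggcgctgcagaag

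The Kv genes Kcnb2 and Kcnq5 each held 1 match, and the K2P genes Kcnk2 and Kcnk3 each held 2, which is the arrangement that gives the two-pore family its name. Only the coding strand was searched, in frame, with this single pattern. Among all 21592 genes with a whole coding sequence, 0.871% held the pattern. It was present in 33 of 40 Kv genes, always once, and 11 of 14 K2P genes held it at least 2 times. None of the 4 HCN genes held it, which says only that these letters are not in their coding sequences. In Kcnk2 the first match runs across the junction of exons 3 and 4, and in Kcnk3 it runs across the junction of exons 1 and 2. The second match lies within exon 5 of Kcnk2 (chr1:189256581-189256595) and within exon 2 of Kcnk3 (chr5:30622202-30622216). The single match of Kcnb2 lies in exon 3 (chr1:15710046-15710060).

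Kcnb2 (ENSMUSG00000092083, chr1:15287254-15723750, plus strand) encodes Kv2.2, a delayed rectifier that helps to end action potentials. Kcnq5 (ENSMUSG00000028033, chr1:21398403-21961942, minus strand) encodes Kv7.5, which carries a slow, non-inactivating M-type current. Kcnk2 (ENSMUSG00000037624, chr1:189207930-189402273, minus strand) encodes TREK-1, a leak channel opened by stretch and lipids. Kcnk3 (ENSMUSG00000049265, chr5:30588170-30625271, plus strand) encodes TASK-1, a leak channel closed by extracellular acid. No other counted gene overlaps Kcnb2 or Kcnq5. Kcnk2 overlaps 2900042K21Rik on the same strand, so reads from that stretch are uncertain. Kcnk2 also overlaps A430027H14Rik and Kcnk3 overlaps Gm9899, both on the other strand. Any effect of these overlaps on the counts was not tested. Levels are given in CPM, the share of a gene in the unique molecular identifiers (UMIs) summed over the cells of a class in a library, scaled to 1e6. They are not divided by transcript length and are compared within a gene, not between genes.

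The libraries held 7141 to 9478 cells with a median of 9834.5 to 13575 UMIs per cell, and 28631 of 33639 cells were kept. Of 33536 distinct barcodes, 103 occurred in more than 1 library. Joint clustering, run without any channel gene, gave 33 clusters, of which 32 could be named by marker genes as 13 classes, each written as "-like". Cluster 3, of 1849 cells led by Kcnq5, Bmpr1b and Nr5a2, had 5 of 10 granulosa markers standing out (Fshr, Inha, Hsd17b1, Nr5a2 and Serpine2) and stayed unnamed. No cluster was named for oocytes. Some clusters came almost wholly from 1 library: granulosa-like clusters 27 (184 of 189 cells) and 32 (all 78 cells) from doxorubicin, and cluster 30 (125 of 126 cells) from AMH. Ratios between libraries were computed in the 7 classes with at least 50 cells in every library: granulosa-, theca-, stroma-, smooth muscle-, pericyte-, blood endothelial- and macrophage-like cells.

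The 4 genes had their largest shares of UMIs in 3 compartments of the ovary, with both Kv genes in the same one. Granulosa-like cells held 63.1% of all Kcnb2 UMIs and the unnamed cluster 3 a further 20.9%, although they are 37.2% and 10.8% of all UMIs counted. Kcnq5 lay in the same cells, with 57.8% of its UMIs in granulosa-like cells and 38.6% in cluster 3. Stroma-like cells held 51.3% of Kcnk2 UMIs and smooth muscle-like cells 19.0%. Theca-like cells held 68.8% of Kcnk3 UMIs. No class thus held the largest UMI share of both a Kv gene and a K2P gene. A share also depends on the size of the class. By mean level over the libraries, Kcnb2 was highest in surface epithelial-like cells, at 416 CPM against 136 in granulosa-like cells. Kcnq5 was highest in cluster 3, at 2562 CPM against 1110 in granulosa-like cells.

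**Figure D1:**
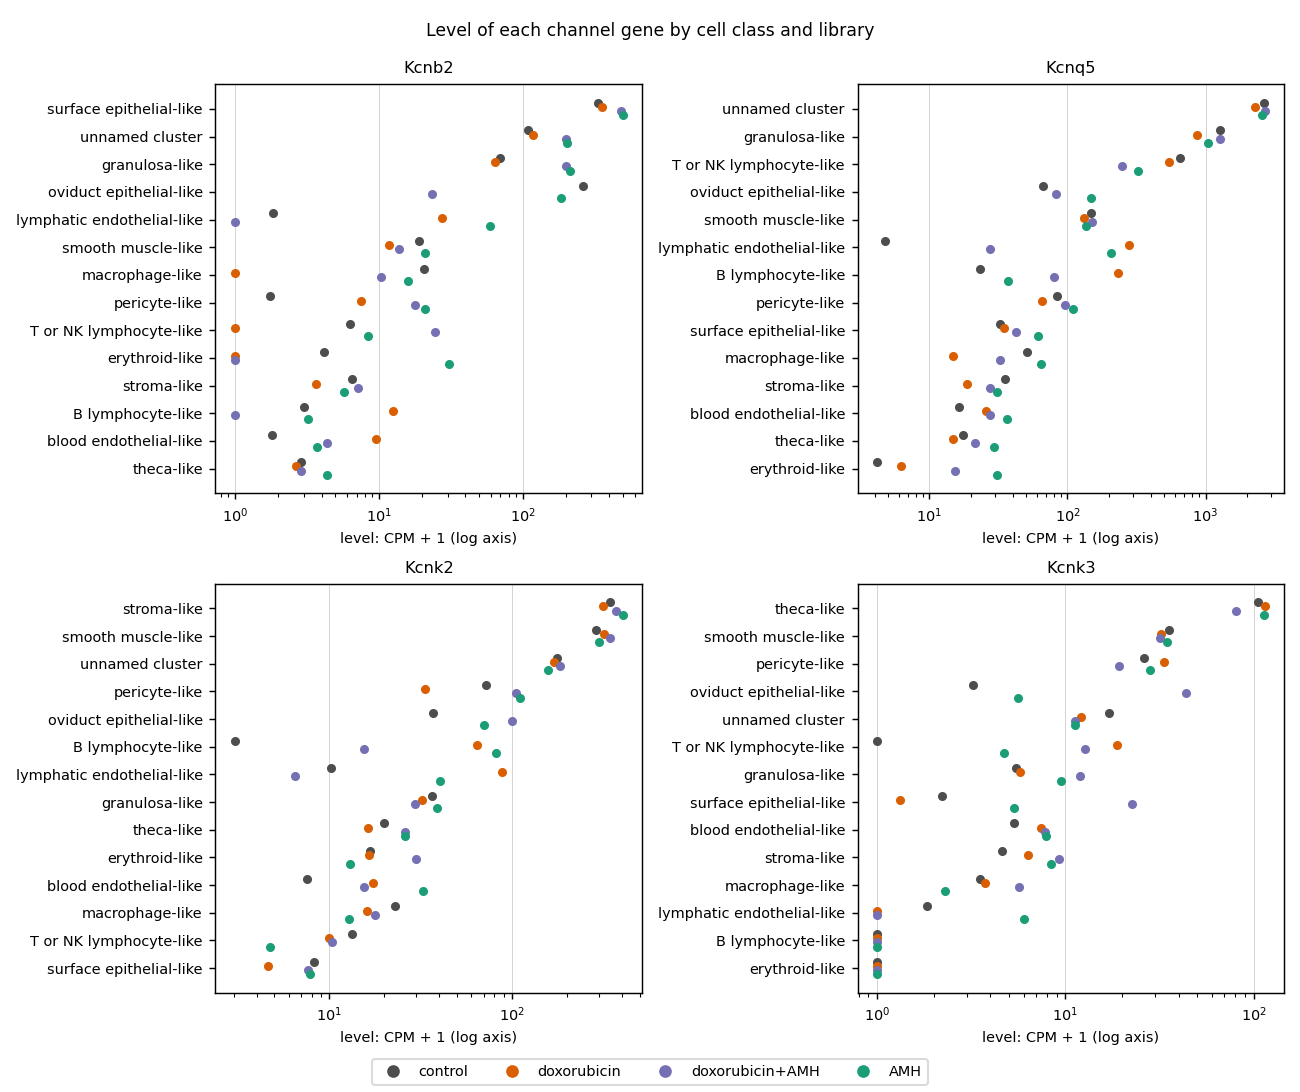
Level of each gene (CPM + 1, log axis) in the 13 named classes and the unnamed cluster, with 1 point per library that holds at least 10 cells of the class and classes ordered by their mean. Kcnb2 in granulosa-like cells separates into 2 libraries without AMH at 63.2 and 69.0 CPM and 2 with AMH at 199 and 211 CPM, while Kcnq5, Kcnk2 and Kcnk3 lie closer together in their highest classes.

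Kcnb2 was about 3-fold higher in granulosa-like cells of both libraries given AMH. Its level was 69.0 CPM in the control library (95% counting interval 66.7 to 71.3), 63.2 CPM with doxorubicin (61.0 to 65.5), 199 CPM with both agents (195 to 202) and 211 CPM with AMH alone (208 to 215). The 2 libraries with AMH were both high, the 2 without were both low, and their intervals did not overlap. AMH over control was 3.07-fold (2.95 to 3.19), a log2 ratio of 1.55 with 5 CPM added to each level. Doxorubicin+AMH over doxorubicin was 3.14-fold (3.02 to 3.27), a log2 ratio of 1.58. The other comparisons were close to 1: doxorubicin over control was 0.917-fold (0.873 to 0.963) and doxorubicin+AMH over AMH was 0.939-fold (0.915 to 0.964).

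A log2 ratio of at least 1 is called 2-fold here, for genes whose levels in the 4 libraries averaged 20 CPM or more. Of the 6596 genes that passed this filter in granulosa-like cells, 0.152% were at least 2-fold higher in AMH than in control, and 0.182% were in doxorubicin+AMH against doxorubicin. Kcnb2 is in both shares. It was picked partly for this ratio, so nothing is read from its place among these genes. Kcnq5 and Kcnk2 also passed the filter in granulosa-like cells and were not 2-fold apart there in any of the 4 comparisons, and Kcnk3, at 4.50 to 10.9 CPM, did not pass it.

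The share of granulosa-like cells with a Kcnb2 UMI was likewise higher in both libraries with AMH. It was 34.6% in the control library, 31.3% with doxorubicin, 57.4% with both agents and 54.1% with AMH alone. After each cell was thinned to 2000 UMIs, it was 10.9% (9.39 to 12.5) in the control library, 11.3% (9.77 to 12.9) with doxorubicin, 26.3% (24.3 to 28.3) with both agents and 26.3% (24.5 to 28.1) with AMH alone. Thinning left out 58, 144, 100 and 131 shallower cells in these libraries. In theca-like cells, where Kcnb2 was lowest, the thinned share over all libraries was 0.536% at a median of 20102 UMIs per cell, against 19.7% in granulosa-like cells at a median of 20021. The granulosa-like share was above this background, to which free RNA in the droplets can contribute.

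The difference in Kcnb2 was present within every granulosa-like cluster that had at least 50 cells in each library. Over these 6 clusters the log2 ratio of AMH to control ran from 1.08 in cluster 13 to 2.01 in cluster 11, and that of doxorubicin+AMH to doxorubicin from 1.19 in cluster 7 to 2.01 in cluster 15. Cluster 11, led by Cntn4, Slc18a2 and Cdh12, had 92.0 CPM in the control library, 80.1 with doxorubicin, 307 with both agents and 386 with AMH alone. Cluster 5, led by Fst, Nr5a2 and the FSH receptor gene Fshr, had 34.3, 31.4, 124 and 110 CPM in the same order. Cluster 15, whose cells are shallow with a median UMI count of 15.2% of their libraries' median, had 20.6, 3.79, 30.4 and 65.6 CPM. In each of the 6 clusters both libraries with AMH were above both libraries without it. In the unnamed cluster 3 the levels were 108, 117, 197 and 203 CPM, a smaller ratio of 1.88-fold (1.78 to 1.99) for AMH over control and 1.68-fold (1.57 to 1.79) for doxorubicin+AMH over doxorubicin.

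**Figure D2:**
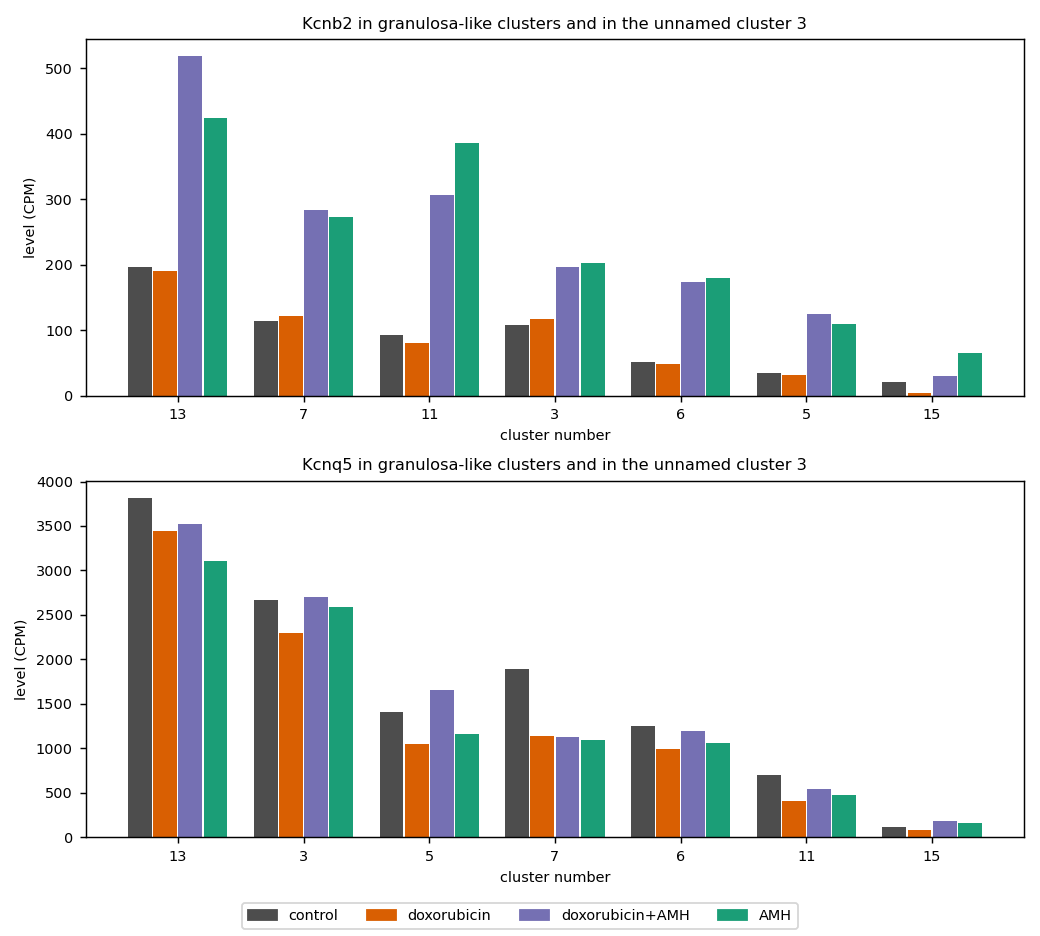
Kcnb2 and Kcnq5 levels (CPM, from 0) in the 6 granulosa-like clusters with at least 50 cells in every library and in the unnamed cluster 3, with 1 bar per library and clusters ordered by level. For Kcnb2 both libraries with AMH stand above both without in each cluster, for example 307 and 386 against 92.0 and 80.1 CPM in cluster 11, and for Kcnq5 they do not.

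Markers of other cell types were read in the same granulosa-like cells. There the summed level of the 8 stroma markers was 193 to 245 CPM over the libraries and that of the 8 theca markers 751 to 889 CPM. The 10 granulosa markers summed to 6247 CPM in the control library, 6106 with doxorubicin, 8162 with both agents and 7352 with AMH alone, so the granulosa markers were also higher in the libraries with AMH. Erythroid markers summed to 70.7, 23.0, 251 and 29.9 CPM and oocyte markers to 33.8, 136, 4.63 and 55.7 CPM in the same order, with neither sum separating the libraries by AMH. Schwann cell markers, at 32.8, 29.9, 50.6 and 43.3 CPM, were higher in both libraries with AMH. The part of these levels in the Kcnb2 ratio was not tested. Surface epithelial markers, of the class with the highest Kcnb2 level, summed to 52.4 to 79.1 CPM in granulosa-like cells and were lower in the 2 libraries with AMH than in the 2 without. Without the granulosa-like clusters that had under 50 cells in any library (27, 30 and 32), both AMH log2 ratios of Kcnb2 were 1.57.

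Outside granulosa-like cells, Kcnb2 was highest in surface epithelial-like cells. These cells, which cover the ovary, had 334 CPM in the control library, 354 with doxorubicin, 482 with both agents and 494 with AMH alone. These sums rest on 105, 93, 39 and 65 cells, too few in 1 library for a ratio. The libraries with AMH were the 2 higher ones in the class and in its cluster 28 (350, 345, 533 and 645 CPM in the same order). In its cluster 31 they were not: the levels were 292 CPM in control, 369 in doxorubicin and 357 in AMH, and doxorubicin+AMH had 4 cells there. In oviduct epithelial-like cells it was 260 CPM in control (145 cells) and 184 CPM in AMH (247 cells) but 22.3 CPM (14.0 to 33.8) in doxorubicin+AMH (47 cells), and the doxorubicin library held a single such cell. Smooth muscle-like cells had 10.7 to 19.9 CPM, stroma-like cells 2.69 to 6.21 CPM and theca-like cells 1.64 to 3.40 CPM. Pericyte-like cells had 0.762 CPM in the control library, 6.52 with doxorubicin, 16.9 with both agents and 19.8 with AMH alone, and the granulosa markers there, at 293, 274, 843 and 762 CPM, were also higher with AMH. Smooth muscle-like cluster 1 had 2.81, 4.85, 6.73 and 7.73 CPM, with both libraries with AMH the higher ones. Doxorubicin+AMH over doxorubicin was 1.39-fold (0.92 to 2.12) there, within counting error. Smooth muscle-like cluster 17 had more Kcnb2, at 66.0, 173, 109 and 64.6 CPM on 203, 19, 54 and 183 cells. Its levels did not separate the libraries by AMH. Summed over the class, Kcnb2 in stroma-, theca-, smooth muscle- and pericyte-like cells did not reach the 20 CPM filter. The part of granulosa RNA in these values was not tested.

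Kcnq5 was the other member with its largest UMI share in granulosa-like cells, and over the class its ratios between libraries were smaller and did not follow AMH. In granulosa-like cells it was at 1265 CPM in the control library (1255 to 1275), 869 with doxorubicin (861 to 878), 1262 with both agents (1252 to 1271) and 1045 with AMH alone (1036 to 1053). The doxorubicin library was the low one, the AMH library lay between, and control and doxorubicin+AMH had overlapping intervals. Doxorubicin over control was 0.687-fold (0.679 to 0.696), and doxorubicin+AMH over doxorubicin was 1.45-fold (1.43 to 1.47). AMH over control was 0.826-fold (0.816 to 0.835), so the 2 AMH comparisons had opposite directions. Doxorubicin+AMH over AMH was 1.21-fold (1.19 to 1.22). With each cell weighted equally the log2 ratio of AMH to control was 0.00 in place of -0.28.

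The lower Kcnq5 in doxorubicin than in control held within all 6 granulosa-like clusters, at log2 ratios from -0.78 in cluster 11 to -0.15 in cluster 13. It was also lower in the unnamed cluster 3, at 0.862-fold (0.850 to 0.875). By contrast, doxorubicin+AMH was at or above AMH in all 6 clusters, at log2 ratios of 0.04 to 0.51. Cluster 7, led by the inhibin and activin subunit gene Inhba with Hsd17b1, had 1887 CPM in control and 1136, 1125 and 1091 CPM in the other 3 libraries. After thinning, 68.1% of granulosa-like cells had a Kcnq5 UMI in the control library, 58.5% with doxorubicin, 69.1% with both agents and 62.6% with AMH alone.

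Kcnq5 was uneven between the granulosa-like clusters and the unnamed cluster 3. Cluster 3, whose first leading gene it is, had 2666 CPM in the control library, 2299 with doxorubicin, 2697 with both agents and 2584 with AMH alone, and 89.8% of its thinned cells had a Kcnq5 UMI. Cluster 13, led by Spef2, Unc5c and Kirrel3, reached 3104 to 3816 CPM, and its cells were shallow with a median of 25.8% of their libraries' median UMI count. Cluster 15, whose leading genes include the cell division genes Ube2c, Birc5 and Ccnb1, had 110 CPM in the control library, 76.8 with doxorubicin, 178 with both agents and 159 with AMH alone, and cluster 11 had 406 to 698 CPM. In cluster 15, unlike the class, both libraries with AMH were above both without, at 1.45-fold (1.06 to 2.00) for AMH over control and 2.32-fold (1.70 to 3.18) for doxorubicin+AMH over doxorubicin. Among the 6 clusters with at least 50 cells in every library, the 2 shallow ones, 13 and 15, were thus the highest and the lowest.

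Kcnq5 UMIs were also counted in other classes. After thinning, 34.8% (27.9 to 42.1) of T or NK lymphocyte-like cells and 15.2% (13.9 to 16.5) of smooth muscle-like cells had one, against 3.50% (2.92 to 4.16) of theca-like cells, at medians of 5386, 9916 and 20102 UMIs per cell before thinning. Granulosa markers summed to 389 to 707 CPM, 352 to 526 CPM and 357 to 531 CPM in these 3 classes, and the part of granulosa RNA in their Kcnq5 shares was not tested. T or NK lymphocyte-like cells had 655 CPM in the control library, 542 with doxorubicin, 246 with both agents and 325 with AMH alone, on 26 to 69 cells per library. Smooth muscle-like cells, a tissue in which Kv7 channels are known to set tone, had 146, 130, 149 and 135 CPM in the same order. Stroma-like cells had 17.6 to 34.3 CPM with the lowest value again in doxorubicin, at 0.513-fold (0.459 to 0.573) of control. In cluster 2, the stroma-like cluster with the highest Kcnq5 level, control was instead the single high library. It had 115 CPM there, against 56.1 with doxorubicin, 55.7 with both agents and 57.8 with AMH alone. Theca-like cells had 16.4 CPM in the control library, 13.9 with doxorubicin, 20.4 with both agents and 28.5 with AMH alone. In the same order, pericyte-like cells had 83.1, 64.1, 95.7 and 109 CPM and blood endothelial-like cells 15.3, 24.8, 26.3 and 35.5 CPM, on 31 to 109 Kcnq5 UMIs per library. Both libraries with AMH were above both without in these 3 classes. AMH over control was 1.74-fold (1.54 to 1.96) in theca-like, 2.32-fold (1.65 to 3.3) in blood endothelial-like and 1.31-fold (0.978 to 1.75) in pericyte-like cells. Doxorubicin+AMH over doxorubicin was 1.46-fold (1.26 to 1.69), 1.06-fold (0.672 to 1.63) and 1.49-fold (1.04 to 2.15) in that order of classes. The pericyte-like ratio of AMH to control and the blood endothelial-like ratio of doxorubicin+AMH to doxorubicin were within counting error. Granulosa markers were also higher with AMH in 2 of the 3, at 293, 274, 843 and 762 CPM in pericyte-like cells and 140, 172, 291 and 292 CPM in blood endothelial-like cells, and their part in the Kcnq5 values was not tested. Macrophage-like cells had 49.6 CPM in the control library, 13.7 with doxorubicin, 31.7 with both agents and 63.4 with AMH alone. The class value with doxorubicin, on 10 Kcnq5 UMIs, was 0.276-fold (0.127 to 0.534) of control, while 1.65% of the genes that passed in this class were at least 2-fold lower. That ratio rests on cluster 26, whose cells are shallow, at 11.8% of their libraries' median UMI count: it had 413 CPM in 63 control cells and 0 in 37 doxorubicin cells. In the larger macrophage-like cluster 19 the order was the opposite, with 8.4 CPM in the control library and 15.0 with doxorubicin. Granulosa markers summed to 212, 267, 354 and 451 CPM in these macrophage-like cells, and their part in the Kcnq5 values was not tested.

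Kcnk2 was highest in stroma-like and smooth muscle-like cells. In stroma-like cells it was at 342 CPM in the control library (336 to 349), 315 with doxorubicin (308 to 322), 368 with both agents (360 to 376) and 403 with AMH alone (395 to 412). The 2 libraries with AMH were the higher ones and no intervals overlapped, but the ratios were small. In the same cells smooth muscle markers summed to 716, 660, 1107 and 936 CPM and granulosa markers to 362, 397, 533 and 562 CPM in that order, both higher with AMH, while stroma markers summed to 10809, 10684, 8992 and 10270 CPM. The part of these in the Kcnk2 ratios was not tested. AMH over control was 1.18-fold (1.15 to 1.21) and doxorubicin+AMH over doxorubicin 1.17-fold (1.13 to 1.20). Doxorubicin over control was 0.921-fold (0.895 to 0.948) and doxorubicin+AMH over AMH 0.911-fold (0.884 to 0.939). Of 6618 genes that passed the filter in stroma-like cells, 0.212% were 2-fold apart either way in AMH against control, and neither member that passed there, Kcnk2 or Kcnq5, was among them.

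The stroma was not uniform in Kcnk2. Clusters 2 (led by Pdgfra, Frem1 and Tcf21) and 8 (Mfap4, Mfap5 and Sfrp1) had 733 and 728 CPM over all libraries, cluster 0 (with Grm7 and Dcn among its leading genes) had 290, cluster 4 had 106, and cluster 12 (Dpt, Clec3b and C3) had 45.7. The small AMH ratio of the class was also uneven. Cluster 0 had 1.53-fold (1.44 to 1.64) for AMH over control and 1.38-fold, a log2 ratio of 0.46, for doxorubicin+AMH over doxorubicin. Cluster 2, the highest, had the opposite direction at 0.905-fold (0.863 to 0.948) and 0.802-fold (0.764 to 0.841).

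In smooth muscle-like cells Kcnk2 was at 289 CPM in the control library, 316 with doxorubicin, 342 with both agents and 298 with AMH alone. Nearly all of it lay in cluster 1, led by Myh11, Acta2 and Actg2, at 326 to 376 CPM, whereas cluster 17, led by Des, had 11.6 to 27.7 CPM. Cluster 17 had 203 cells in control and 19 in doxorubicin. Pericyte-like cells, which wrap small vessels, had 70.9 CPM in the control library, 32.6 with doxorubicin, 104 with both agents and 109 with AMH alone. Doxorubicin was the low library there, at 0.460-fold (0.294 to 0.701) of control, and doxorubicin+AMH was at 3.19-fold (2.06 to 5.06) of doxorubicin. These sums hold 30 to 93 Kcnk2 UMIs in classes of 62 to 117 cells. A Kcnk2 UMI was found in 21.4% of cells in the control library, 6.49% with doxorubicin, 16.1% with both agents and 25.9% with AMH alone. The UMIs thus came from few cells, and the intervals of the ratios do not cover the spread between cells. After thinning, the shares were 10.3% (5.46 to 17.4), 2.6% (0.316 to 9.07), 6.56% (1.82 to 15.9) and 12.5% (6.16 to 21.8), with overlapping intervals. In the same cells the 8 stroma markers summed to 3685 CPM in the control library, 2732 with doxorubicin, 4165 with both agents and 4166 with AMH alone, the order of Kcnk2, whereas the 8 pericyte markers summed to 4911, 5342, 3805 and 3266 CPM. The part of stroma RNA in these Kcnk2 ratios was not tested. Among 6946 genes that passed the filter in pericyte-like cells, 1.22% were at least 2-fold lower in doxorubicin than in control, and 1.74% were at least 2-fold higher in doxorubicin+AMH than in doxorubicin.

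Kcnk2 was low in granulosa-like cells as a class, at 28.5 to 37.7 CPM. Cluster 11, the granulosa-like cluster with the largest Kcnb2 ratio for AMH over control, was an exception in its AMH ratios, with 44.4 CPM of Kcnk2 in the control library, 29.8 with doxorubicin, 72.8 with both agents and 87.2 with AMH alone. AMH over control was 1.96-fold (1.74 to 2.22) there, and doxorubicin+AMH over doxorubicin was 2.45-fold (2.08 to 2.87). The unnamed cluster 3 had 156 to 182 CPM.

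Kcnk3 was highest in theca-like cells. Its level was 104 CPM in the control library (101 to 108), 114 with doxorubicin (109 to 118), 79.7 with both agents (75.9 to 83.6) and 113 with AMH alone (109 to 118). Doxorubicin+AMH was the single low library, and the other 3 lay between 104 and 114 CPM. It was 0.701-fold (0.660 to 0.745) of doxorubicin and 0.702-fold (0.660 to 0.748) of AMH. AMH over control was 1.09-fold (1.03 to 1.15) and doxorubicin over control 1.09-fold (1.04 to 1.15). The low value with both agents depended on how cells were summed: the log2 ratio to doxorubicin was -0.49 here, -0.07 with each cell weighted equally and -1.03 when cells were taken by a per-cell marker gate. The ratio of AMH to control had log2 values of 0.49 and -0.32 under the same alternatives. The thinned share of theca-like cells with a Kcnk3 UMI was 13.9% in the control library, 16.2% with doxorubicin, 14.9% with both agents and 19.5% with AMH alone, which is not the order of the CPM. Among 6430 genes that passed the filter in theca-like cells, 3.73% were 2-fold apart either way in AMH against control and 3.37% in doxorubicin+AMH against doxorubicin, and neither Kcnk3 nor Kcnk2, the members that passed there, was among them.

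Theca-like cells of the libraries with and without AMH fell mostly into different clusters, and this bears on every theca value. Cluster 9 held 558 cells of doxorubicin+AMH and 727 of AMH but 25 of control and 22 of doxorubicin, and cluster 10 held 51, 47, 665 and 419. The 8 theca markers summed to 9371 CPM in the control library, 8513 with doxorubicin, 2866 with both agents and 2822 with AMH alone, and 7 of the 8 were above 20 CPM in every library. Kcnk3 over all libraries was at 156 CPM in cluster 9 and 149 CPM in cluster 10. Within cluster 9 it was at 101 CPM in the control library, 78.2 with doxorubicin, 144 with both agents and 167 with AMH alone. Within cluster 10 it was at 141, 168, 61.7 and 111 CPM in the same order. In each of these clusters the libraries with few cells there were the lower ones. Cluster 16, led by the steroidogenic genes Cyp17a1 and Cyp11a1 with Lhcgr, had 13.0 CPM in the control library, 23.7 with doxorubicin, 21.3 with both agents and 38.0 with AMH alone. Cluster 14, with the proliferation genes Top2a and Mki67 among its leading genes, had 1.05 to 2.76 CPM.

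**Figure D3:**
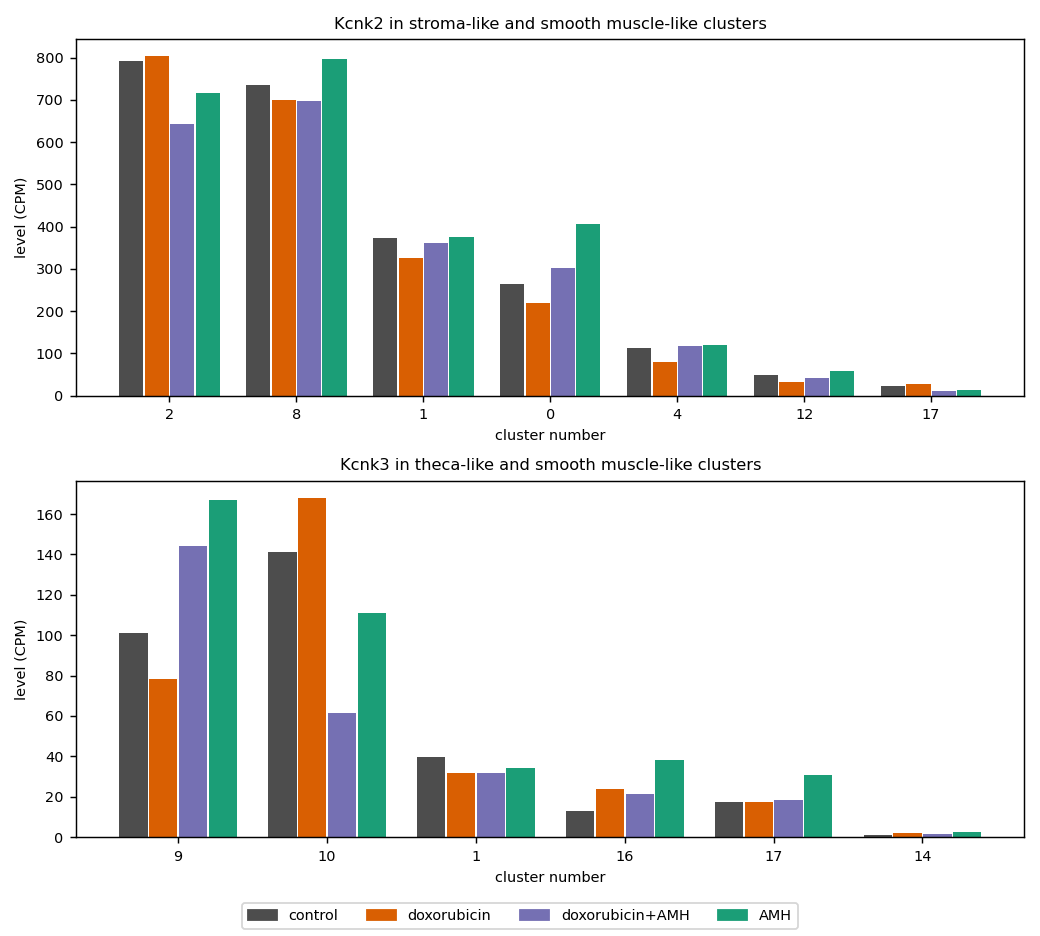
Kcnk2 levels in stroma-like and smooth muscle-like clusters and Kcnk3 levels in theca-like and smooth muscle-like clusters (CPM, from 0), with 1 bar per library and clusters ordered by level. Kcnk2 is concentrated in clusters 2 and 8 (733 and 728 CPM over all libraries) and Kcnk3 in clusters 9 and 10 (156 and 149 CPM); cluster 9 has 25 control and 22 doxorubicin cells, and cluster 17 has 19 doxorubicin cells.

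Contractile cells were the next site of Kcnk3, at 30.9 to 34.5 CPM in smooth muscle-like cells and 18.3 to 32.6 CPM in pericyte-like cells. The sums of the smooth muscle-like class did not differ beyond counting error in any of the 4 comparisons, with AMH over control at 0.976-fold (0.849 to 1.12). In its cluster 1 alone doxorubicin over control was 0.791-fold (0.672 to 0.930). In granulosa-like cells Kcnk3 was at 4.50 CPM in the control library, 4.75 with doxorubicin, 10.9 with both agents and 8.54 with AMH alone. Those values are below the filter, and the thinned share of cells with a UMI was 1.41%, against 1.36% in stroma-like cells. No Kcnk3 UMI was counted in 132 B lymphocyte-like or 225 erythroid-like cells. A count of 0 allows up to 3 UMIs, or 6.11 to 17.3 CPM per library in the first class and 7.77 to 17.9 CPM in the second.

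**Figure D4:**
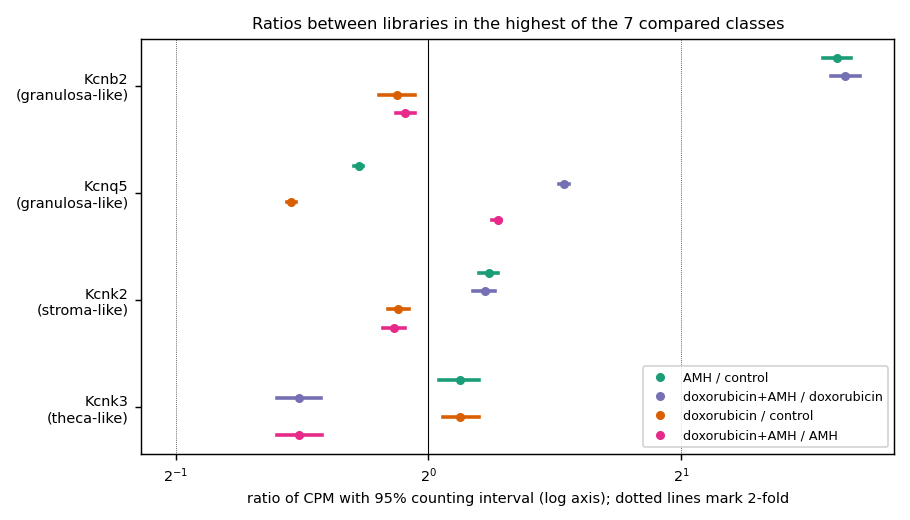
Ratio of CPM between libraries (log axis) for each gene in the highest of the 7 compared classes, with 95% counting intervals as lines and dotted marks at 2-fold. The 2 AMH ratios of Kcnb2, at 3.07-fold and 3.14-fold, are the only points past a 2-fold mark.

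In each gene's order of classes several neighbours cannot be separated. For Kcnk2 the library values of stroma-like cells (315 to 403 CPM) and smooth muscle-like cells (289 to 342 CPM) overlapped. For Kcnk3 those of smooth muscle-like and pericyte-like cells overlapped, and theca-like cells stood above every value of either. For Kcnq5 the unnamed cluster 3 (2299 to 2697 CPM) was above every granulosa-like value, which was above every T or NK lymphocyte-like value. For Kcnb2 the surface epithelial-like values (334 to 494 CPM) were above those of every other class, and the granulosa-like values (63.2 to 211 CPM) overlapped those of cluster 3 (108 to 203 CPM).

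The genes whose levels over the 28 sums of 7 classes and 4 libraries were most like each member's were found among 10513 genes by Pearson's r of log2(CPM + 5). These sums share libraries, so r is a description. Kcnb2 was most like Kcnq5 (r = 0.922), Gm42303 (0.920) and the cytochrome gene Cyb5a (0.909), the last at 1311, 1415, 1964 and 1850 CPM in granulosa-like cells of control, doxorubicin, doxorubicin+AMH and AMH. Kcnq5 was most like Rims1 (0.933), Fam13a (0.932) and Ank3 (0.927), the gene of the ankyrin that anchors channels at the axon initial segment. The genes most like Kcnk2 included the collagen gene Col12a1 (0.967) and the glutamate receptor gene Grin2b (0.961). Kcnk3 was most like Pgrmc1 (0.896), Cox6c (0.882) and Ubxn2b (0.870).

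Of 101 genes on lists of potassium and HCN channels and their accessory subunits, 100 were in the files and 25 passed the filter in at least 1 of the 7 classes. In granulosa-like cells 10 passed. In AMH against control Kcnb2 was 2-fold higher and Kcnk1, a weak two-pore leak channel, was 2-fold lower at 30.6 CPM in control and 10.2 in AMH. In doxorubicin+AMH against doxorubicin Kcnb2 was 2-fold higher and Kcnd2, which encodes the fast-inactivating Kv4.2, was 2-fold lower at 137 CPM in doxorubicin and 57.0 in doxorubicin+AMH. The 2 genes are 2 of 10 in each comparison, beside 0.622% and 0.925% of all genes that passed. The median log2 ratio of the 10 was -0.16 and 0.02, against -0.05 and -0.03 for all genes that passed. Kcnb2 is the one listed gene that was 2-fold apart in both AMH comparisons in granulosa-like cells. It was picked partly for this difference and is counted in each 2 of 10, so nothing is read from its place or from these counts. In the comparisons for doxorubicin, made without AMH and with it, none of the 10 was 2-fold apart, beside 0.0758% and 0.0303% of all genes.

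In theca-like cells 10 listed genes passed and 5 were 2-fold apart in both AMH comparisons, in the same directions, beside 3.73% and 3.37% of all genes that passed in AMH against control and in doxorubicin+AMH against doxorubicin. Kcnd2 was at 514 CPM in the control library, 426 with doxorubicin, 95 with both agents and 112 with AMH alone, log2 ratios of -2.15 and -2.11. Kcnma1, the large-conductance calcium-activated channel, had log2 ratios of -1.39 and -1.46, and the Kv gene Kcnh1 had -1.47 and -1.19. Higher were Dpp6, a subunit that speeds Kv4 gating (34.2, 42.2, 191 and 238 CPM, log2 ratios 2.63 and 2.05), and Kcnd3, the Kv4.3 gene (16.2, 18.2, 45.8 and 41.6 CPM, 1.14 and 1.13). These values carry the difference in clusters 9 and 10 given above. Markers of other cell types also differed in these theca-like cells: stroma markers summed to 1531, 1678, 2541 and 2181 CPM in the same order, smooth muscle markers to 154, 140, 468 and 309 CPM, and Schwann markers to 4.98, 5.09, 50.4 and 68.6 CPM. Dpp6 itself was at 151 to 168 CPM in stroma-like cells. The part of the cluster make-up and of these other markers in the theca values was not tested.

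**Figure D5:**
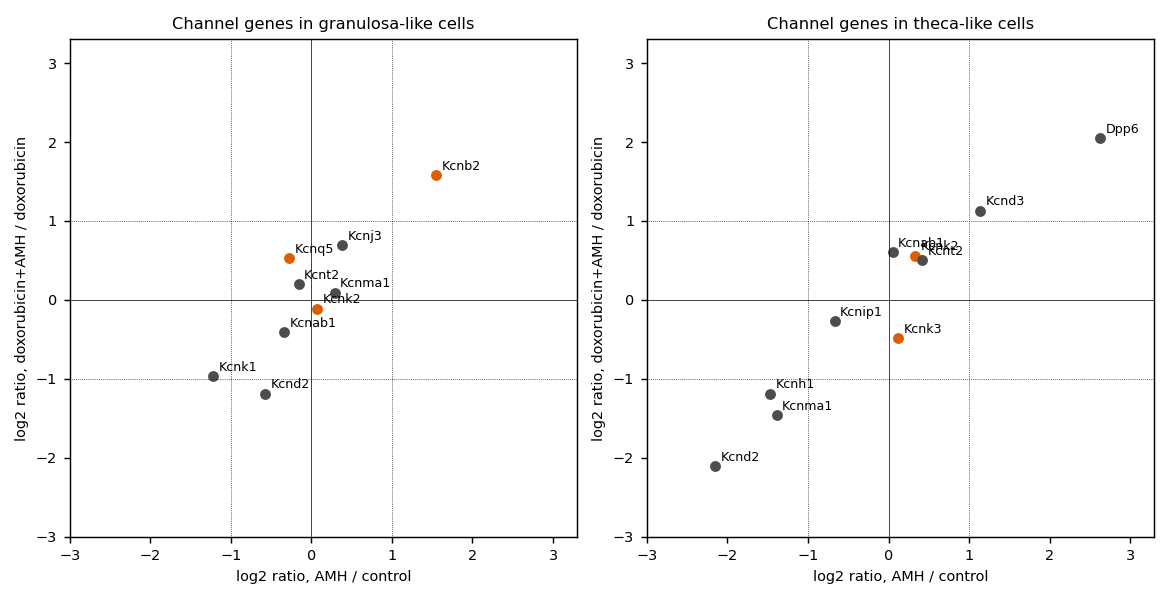
Log2 ratios of AMH over control (x) against doxorubicin+AMH over doxorubicin (y) for 9 of the 10 channel genes that passed the filter in granulosa-like cells (left; 1 is not reported here) and the 10 in the theca-like class (right), with members in orange and dotted lines at 2-fold. Kcnb2 (1.55 and 1.58) stands alone at the upper right among the granulosa-like points shown, while theca-like Dpp6 and Kcnd3 lie at the upper right and Kcnd2, Kcnh1 and Kcnma1 at the lower left.

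The remaining lists add the most highly counted channels. Kcnj3, an inward rectifier gated by G proteins, had 139, 107, 176 and 182 CPM in granulosa-like cells of control, doxorubicin, doxorubicin+AMH and AMH, with log2 ratios of 0.38 and 0.69 for the AMH comparisons. Kcnt2, a sodium-activated channel, was highest in stroma-like cells at 582 to 685 CPM, and the accessory subunit Kcnab1 in pericyte-like cells at 582 to 799 CPM. The inward rectifier Kcnj8, a pericyte and smooth muscle subunit of ATP-sensitive channels, had 80.4 to 135 CPM in pericyte-like cells.

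Genes that SMAD signalling is known to raise were read in the same granulosa-like cells as a check of the AMH labels. Smad6, an inhibitory SMAD, was at 17.8 CPM in the control library, 20 with doxorubicin, 60 with both agents and 74.4 with AMH alone, and Id2 was at 144, 157, 271 and 303 CPM. The log2 ratios of AMH over control and of doxorubicin+AMH over doxorubicin were 1.80 and 1.38 for Smad6, 1.04 and 0.76 for Id2, 0.69 and 0.79 for Smad7, 0.21 and 0.43 for Id1, and 0.18 and 0.34 for Id3. All 5 were thus higher in both libraries with AMH. In stroma-like cells, where Kcnk2 had its small AMH ratios, both log2 ratios were below 0 for 4 of the 5 genes: -0.60 and -0.04 for Id1, -0.17 and -0.04 for Id2, -0.61 and -0.07 for Id3, and -0.30 and -0.06 for Smad7. Those of Smad6, at 8.02 to 11.8 CPM, were 0.24 and 0.16. Theca-like cells had larger ratios than granulosa-like cells for most of these genes. Over the 5 genes they ran from 1.31 to 2.13 and from 1.08 to 1.99, in cells whose clusters differed with AMH as given above. In smooth muscle-like cells both ratios were below 0 for Id1 (-0.98 and -0.45), Id2 (-0.43 and -0.27) and Id3 (-0.60 and -0.33). Those of Smad6 were 0.23 and 0.50 there, and those of Smad7 -0.16 and 0.18.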

How the data were processed

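Droplet RNA counts were analysed from 4 mouse ovary libraries, 1 per group. The deposited files hold whole-number UMI counts per gene and cell, made by the authors with Cell Ranger 7.0.0 per the file headers. The build mm10 (GRCm38), R 4.2.0 and Seurat 4.1.0 are named in the submitters' processing notes. Whether intronic reads were counted is not given in the sources used here. Barcodes under 1000 UMIs or above 20% mitochondrial UMIs were left out. Scrublet scores ranked doublets, and 0.8% per 1000 cells were removed (590 control, 328 doxorubicin, 390 doxorubicin+AMH and 584 AMH cells). Its own threshold marked 0, 0, 1 and 0 cells and was not used.

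Clusters came from 2000 variable genes without channel or mitochondrial genes, 30 principal components, 20 neighbours and Leiden resolution 1 (scanpy 1.11.5, leidenalg 0.10.2). A cluster was named when at least 3 markers and 60% of a list exceeded the median cluster by 1 log2 unit or more, in at least 10% of its cells. These naming thresholds were set after the data were seen. Names rebuilt in this way may differ from the authors'. Sums per class and library gave CPM with exact Poisson intervals, ratios with exact conditional binomial intervals, and shares with exact Clopper-Pearson intervals. Log2 ratios used a pseudocount of 5 CPM. The ratio script was tested on simulated data.

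No test between groups was made, since each has a single library. The 4 members and all gene lists were chosen with earlier results of these data known. Genes named come from the members, the 3 highest genes of each channel list, listed genes 2-fold apart in the same direction in both AMH or both doxorubicin comparisons of a class, the 3 genes most like each member, and Id1, Id2, Id3, Smad6 and Smad7. Kcnk1 in granulosa-like cells was named after its value was seen. Some items that these rules would name are not reported here. RefSeq promoters were not used. The alternatives tried are given in the closing section.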

Additional observations from a re-analysis of the deposited data

Results flagged for a closer look

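The doxorubicin comparisons of Kcnk2 had opposite signs in different classes. In smooth muscle-like cells the log2 ratios were 0.13 for doxorubicin over control and 0.19 for doxorubicin+AMH over AMH. Granulosa-like cells had -0.17 and -0.35, and stroma-like cells had -0.12 and -0.13. With 1 library per group the difference was not tested. Within smooth muscle-like cluster 1, which holds 525 to 724 cells per library, the same log2 ratios were -0.19 and -0.05. Cluster 17, where Kcnk2 was at 18.5 CPM over all libraries, had 203 cells in the control library, 19 with doxorubicin, 54 with both agents and 183 with AMH alone.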

How the results depend on the processing

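No paired analysis was possible because each group has 1 library. No alternative reversed the AMH ratios of Kcnb2 or brought them under 2-fold. Log2 ratios follow. For Kcnb2, AMH over control (1.55) became 1.64 with median-of-ratios scaling, 1.46 with doublets left in, 1.45 at a 10% mitochondrial limit, 1.49 with cells of at least 500 UMIs, 1.35 with libraries clustered alone and 1.37 with naming at 50% of a list. Its doxorubicin+AMH over doxorubicin (1.58) became 1.68, 1.42, 1.39, 1.43, 1.32 and 1.34 in that order, 1.64 at a pseudocount of 1 CPM, 1.65 with cells weighted equally and 1.42 with a per-cell marker gate. For Kcnq5, AMH over control (-0.28) became -0.18, -0.21, -0.22, -0.22, -0.71 and -0.11 in the first order, 0.00 with cells weighted equally, -0.06 with the gate and -0.25 without granulosa-like clusters of under 50 cells in any library. Its doxorubicin+AMH over doxorubicin (0.53) became 0.64, 0.40, 0.43, 0.47, 0.28 and 0.33, then 0.70, 0.37 and 0.50. For Kcnk2, AMH over control (0.23) became 0.32 with median-of-ratios scaling and 0.09 with the gate, and doxorubicin+AMH over doxorubicin (0.22) became 0.09 with libraries clustered alone and 0.17 with the gate. For Kcnk3, AMH over control (0.12) became 0.49 with cells weighted equally and -0.32 with the gate. Its doxorubicin+AMH over doxorubicin (-0.49) became -0.28 at the 10% limit, -0.19 with libraries clustered alone, -0.07 with cells weighted equally and -1.03 with the gate. The count of listed channel genes 2-fold apart in granulosa-like cells, 2 in each AMH comparison, ran from 1 to 3 over the alternatives. The cause of these shifts was not tested. The 50% naming and the exclusion of small clusters were chosen after seeing the data. One library of 5 pooled animals per group and the thin pericyte-like and surface epithelial-like sums limit what these ratios show.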

Other observations

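Stroma-like cluster 12, led by Dpt, Clec3b and C3, had Kcnb2 at 25.7 CPM in the control library, 5.36 with doxorubicin, 45.2 with both agents and 11.8 with AMH alone. Both doxorubicin-free libraries lay between the 2 doxorubicin libraries. In the unnamed cluster 3, Kcnk2 was at 176 CPM in the control library, 168 with doxorubicin, 182 with both agents and 156 with AMH alone.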
